A study of Sus scrofa with 23 samples.

Results

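OSR2, SNAI1, DLX5 and RUNX1T1 are 4 regulators of development among the 8603 genes of an expression table of porcine oocytes and pre-implantation embryos. They were taken by their gene identifiers (ENSSSCG00000006073, ENSSSCG00000032613, ENSSSCG00000038838 and ENSSSCG00000006115). The study listed them among the genes above 10 FPKM in the part of in vivo blastocysts that held the inner cell mass and below 1 FPKM in the part that held trophectoderm alone. The genes were thus chosen by their FPKM in those 2 libraries, whose values are given here as a description.

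OSR2 is a zinc finger transcription factor known from the development of the palate, kidney and joints. SNAI1, the Snail zinc finger repressor, binds E-box motifs, turns off epithelial genes such as E-cadherin and is needed when cells leave an epithelium at gastrulation. DLX5 is a homeodomain transcription factor of the distal-less family, which acts in bone, face and limb and responds to bone morphogenetic proteins (BMPs). RUNX1T1, also called ETO or MTG8, does not bind a DNA motif of its own and recruits histone deacetylases to repressors. The blastocyst is the stage at which the inner cell mass (ICM), the source of the fetus, first separates from the trophectoderm (TE), which gives rise to the placenta.

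RNA was measured in 23 libraries, 1 for each condition, so no difference between conditions can be set against a spread between replicates. The IV-D group (8 libraries) held MII oocytes of 2-year-old Duroc sows in estrus, and embryos fertilized in vivo and flushed from Duroc sows that had been inseminated with semen of 1 Duroc boar, which makes the embryos paternal half-siblings. The NT-D group (8 libraries) and the NT-LW group (7 libraries) were clones made by nuclear transfer from ear fibroblasts of that 1-year-old Duroc boar and of a 1-year-old Laiwu boar, cultured in PZM3 medium, so that each clone group stands for the cells of 1 animal. The clones were male, and the sex of the IV-D embryos was not determined. Per the study, the embryos of a stage from 1 pregnant sow, of both sexes, were pooled. Each IV-D embryo library thus stands for the litter of 1 sow. The part of the sow cannot be told apart from that of the stage, nor from a difference between clones and IV-D. The question was where the transcriptomes of clones and of in vivo embryos part during the first week.

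The oocytes that received the nuclei were matured in vitro and make up the oocyte library labelled NT-D, which is also the starting point for NT-LW. The study's methods say that they came from hybrid sows, while the label gives Duroc. Both clone groups were compared with the same IV-D libraries, so their differences from IV-D are not independent of each other. Stages are written OC (oocyte), 1C, 2C, 4C and 8C (1-cell to 8-cell embryos), MO (morula), IT (the blastocyst part that held ICM together with TE) and TE. About 5 to 10 cloned embryos were pooled per library, and the cut through the blastocyst was made by hand with a knife. In such pools fewer cells of a type and less RNA per cell cannot be told apart, and culture, the source of the oocytes and nuclear transfer itself cannot be told apart either.

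Levels are in FPKM, fragments scaled by gene length and by library depth. Because the steps between FPKM values gave back whole fragments for all 8603 genes, each level is known with its number of fragments, at depths of 14952784 to 22991067 fragments per library. Intervals in the text are exact 95% intervals for these fragment numbers. They cover counting error only, since the cDNA was amplified and molecules were not tagged. A gene was called higher or lower if log2(FPKM + 1) differed by over 1 between 2 libraries and if 1 of them, or both, reached 1 FPKM. Differences on this scale understate the change of genes with low levels. A count of 0 allows a level of up to 3 fragments.

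In Sscrofa11.1, the build to which the reads were aligned, the RefSeq annotation places OSR2 on the minus strand of chromosome 4 at 37890200 to 37897935 and RUNX1T1 on the plus strand of the same chromosome at 44600292 to 44745954, 6702356 bases away. SNAI1 lies on the plus strand of chromosome 17 at 51546446 to 51552498 and has 3 exons. DLX5 lies on the minus strand of chromosome 9 at 76639915 to 76643689 and also has 3. OSR2 has 4 transcript models with 4 exons each, and RUNX1T1 has 1 model with 15 exons. A noncoding gene, LOC110260259, lies within RUNX1T1, and the sources used here do not say that reads were counted by strand. No other gene overlaps any of the 4.

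The 250 bases before the RefSeq start are shown for SNAI1 (chr17:51546196-51546445, plus strand), the member whose level differed most between the 8-cell libraries of clones and IV-D. Capitals mark E-boxes (CANNTG), the kind of motif that SNAI1 is known to bind.
SNAI1: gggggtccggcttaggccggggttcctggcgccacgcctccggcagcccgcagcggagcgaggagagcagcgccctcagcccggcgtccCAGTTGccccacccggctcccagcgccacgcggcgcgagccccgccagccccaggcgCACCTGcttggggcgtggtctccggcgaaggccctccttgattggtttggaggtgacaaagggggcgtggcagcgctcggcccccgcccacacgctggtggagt
The window holds the E-box CAGTTG, 161 bases before the start of SNAI1, and CACCTG, 104 bases before it, which is CAGGTG on the other strand and the form of E-box best known for SNAI1. Of 19556 windows of the same length before protein-coding genes, 61.9% hold an E-box and 19.6% hold CAGGTG on either strand, so these matches are common. The window holds neither TGTGGT, the core of the RUNX motif (14.0% of windows, either strand), nor TAATTA, a homeodomain motif (3.73%). Its GC content was 75.2%, against a median of 57.6% over all windows.

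OSR2 was a transcript of the oocyte and early cleavage stages that fell at the 8-cell stage in each group. From OC to 4C its level lay between 4.83 and 13.6 FPKM in 11 libraries, with a median of 6.61. In IV-D it was 5.93 FPKM in oocytes, 6.51 at 1C, 5.01 at 2C and 6.54 at 4C, and then 0.978 at 8C and 2.22 in morulae. In NT-D it was 8.56 FPKM in oocytes, 13.6 at 1C, 4.83 at 2C and 8.24 at 4C, followed by 1.41 at 8C and 3.82 in morulae. In NT-LW it was 9.19 FPKM at 1C, 12.8 at 2C and 6.61 at 4C, followed by 2.39 at 8C and 2.56 in morulae. Over the 3 libraries at 8C its level thus lay between 0.978 and 2.39 FPKM. The difference from 4C to 8C on the log2(FPKM + 1) scale was -1.93 in IV-D, -1.94 in NT-D and -1.17 in NT-LW, past the fold rule in each. In these steps 28.1%, 28.7% and 25.6% of the genes tested were lower.

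SNAI1 followed the opposite course. It was nearly absent until the 2-cell stage, at 0 to 0.613 FPKM in 8 libraries with at most 48 fragments, and appeared at 4C in every group. In IV-D no fragment was seen in oocytes, which allows up to 0.0364 FPKM, 6 fragments were seen at 1C and 1 at 2C. The level was then 10.3 FPKM at 4C, 18.8 at 8C and 9.69 in morulae. In NT-D it was 0.0284, 0.176 and 0.286 FPKM from OC to 2C, and 5.84 at 4C, 3.97 at 8C and 9.23 in morulae. In NT-LW it was 0.0887 FPKM at 1C, 0.613 at 2C, 4.14 at 4C, 0.870 at 8C and 7.65 in morulae. SNAI1 thus stood higher at 8C than at 4C in IV-D, and lower at 8C than at 4C in both clone groups. From 2C to 4C the difference on the log2(FPKM + 1) scale was 3.48 in IV-D, 2.41 in NT-D and 1.67 in NT-LW, past the fold rule in each, as for 34.4%, 17.3% and 16.5% of the genes tested.

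DLX5 was low until 2C as well, at 0.242 to 1.14 FPKM in 8 libraries, but the stage at which it appeared differed between IV-D and the clones. In IV-D it was still at 0.749 FPKM at 4C (27 fragments) and reached 9.23 at 8C and 16.2 in morulae. In NT-D it was already at 10.3 FPKM at 4C (351 fragments), then at 6.96 at 8C and 11.8 in morulae. In NT-LW it was at 6.34 FPKM at 4C (276 fragments), then at 4.65 at 8C and 14.7 in morulae. DLX5 was therefore past the fold rule from 2C to 4C in NT-D (log2 difference 3.02) and NT-LW (1.83), and from 4C to 8C in IV-D (2.55), a step in which 35% of the genes tested were higher.

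RUNX1T1, the corepressor, was the most abundant of the 4 in FPKM, which is scaled for gene length, in every library up to the morula. Its level was 25.0 to 72.5 FPKM in the 11 libraries from OC to 4C, with a median of 44.0. In IV-D it was 31.7 FPKM in oocytes, 52.0 at 1C, 25.0 at 2C, 50.9 at 4C, 35.1 at 8C and 43.6 in morulae. In NT-D it was 44.0 FPKM in oocytes, 72.5 at 1C, 30.7 at 2C, 50.4 at 4C, 21.8 at 8C and 24.2 in morulae. In NT-LW it was 40.7 FPKM at 1C, 39.5 at 2C, 52.4 at 4C, 20.5 at 8C and 63.0 in morulae. The 3 groups lay close together at 4C, where their counting intervals overlap, and apart in morulae. From 4C to 8C RUNX1T1 was lower past the fold rule in NT-D (-1.17) and NT-LW (-1.32), while the IV-D difference was -0.52 and did not pass it.

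**Figure D1:**
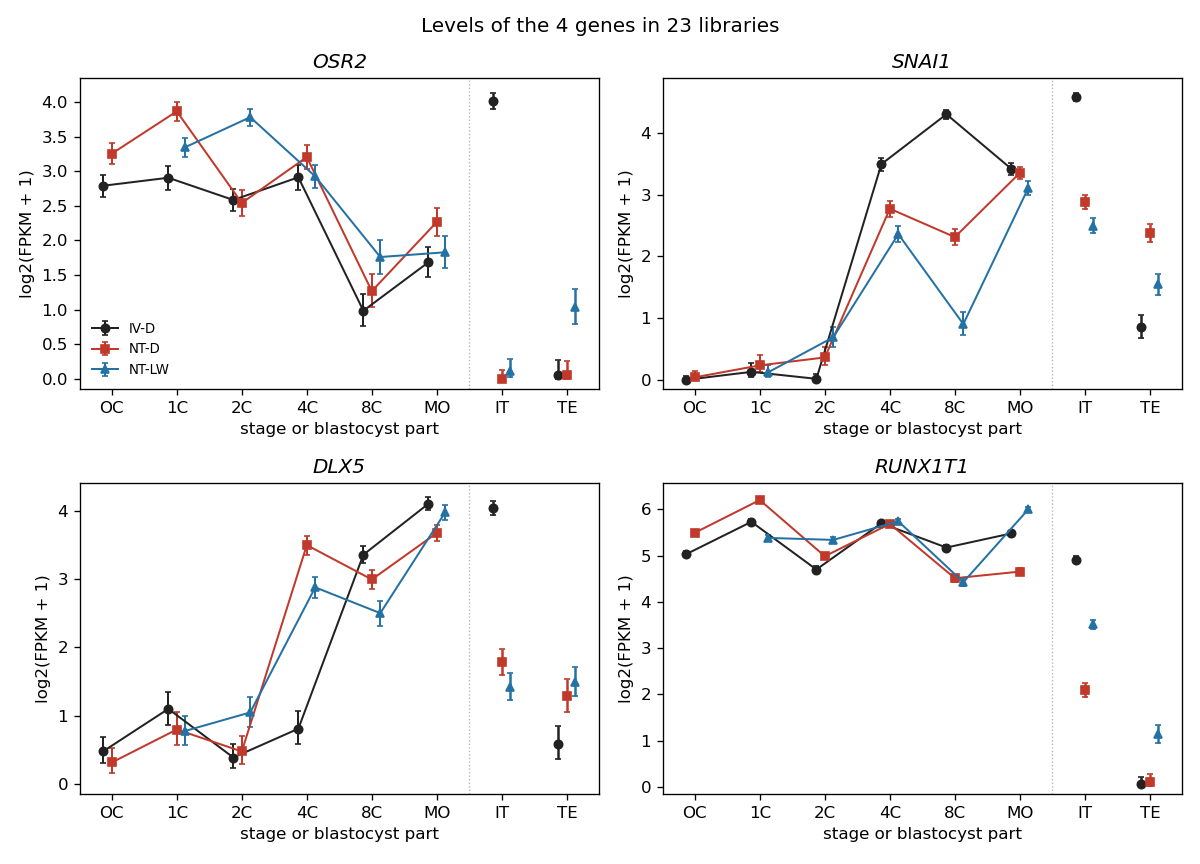
Level of each gene on the log2(FPKM + 1) scale (vertical axis) by stage or blastocyst part (horizontal axis) in IV-D (black circles), NT-D (red squares) and NT-LW (blue triangles), 1 library per point, with 95% counting intervals; lines join the stages from oocyte to morula. OSR2 falls from 4C to 8C in all groups, SNAI1 separates at 8C (18.8, 3.97 and 0.870 FPKM), DLX5 separates at 4C (0.749, 10.3 and 6.34 FPKM), and in IV-D blastocysts all 4 genes are higher in IT than in TE, the contrast by which they were chosen.

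Over the steps between successive stages of the 3 groups, 38 of 84 values passed the rule, 13 higher and 25 lower. Depending on the step, 2.45% to 35% of the genes tested were higher and 1.22% to 40.3% lower. Of the calls, 2 higher ones from morula to IT and 4 lower ones from morula to TE in IV-D rest on the libraries that chose the genes. From 1C to 2C RUNX1T1 was lower in IV-D (-1.03; 24.6% of the genes tested) and in NT-D (-1.21), and OSR2 was lower in NT-D (-1.33; 26.5%). With a scaling that levels the bulk of genes these 3 values were -0.48 to -0.79 and not called. From 8C to morula no value was called in IV-D. In NT-LW SNAI1 (2.21), DLX5 (1.48) and RUNX1T1 (1.57) were higher in this step, as were 22.4% of the genes tested. In NT-D OSR2 (1.002) and SNAI1 (1.04) were higher, as were 31.6%, and with those scalings they were at 0.61 to 0.67 and not called.

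Ordered over all 23 libraries, OSR2 was highest in IV-D IT (15.3 FPKM) followed by NT-D 1C (13.6), and SNAI1 was highest in IV-D IT (23.1 FPKM) followed by IV-D 8C (18.8). DLX5 was highest in IV-D morulae (16.2 FPKM), with an interval of 15.04 to 17.3 that overlaps that of IV-D IT (15.4, 14.3 to 16.6). RUNX1T1 was highest in NT-D 1C embryos (72.5 FPKM) followed by NT-LW morulae (63.0). Of the 22 pairs of neighbours in each order, the counting intervals overlapped in 19 for OSR2, 14 for SNAI1, 18 for DLX5 and 12 for RUNX1T1, so most neighbours in these orders do not differ beyond counting error. OSR2 reached 1 FPKM in 18 of the 23 libraries, SNAI1 in 13, DLX5 in 15 and RUNX1T1 in 21.

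Clones were next set against IV-D at each stage. Over 15 comparisons of a clone library with the IV-D library of its stage, the 4 genes gave 60 values, of which 5 were higher and 11 lower by the fold rule. Of these calls 8 of the lower ones are at IT and 2 of the higher ones at TE, against the IV-D libraries by which the genes were chosen, which leaves 3 higher and 3 lower among 44 values at the other stages. With each library rescaled to the same sum 10 of the 60 values were higher and 13 lower. None of the 4 genes was called at OC, 1C or MO. Of the genes tested, 13.3% were higher and 1.51% lower at OC, 18.5% and 3.44% at 1C in NT-D, 20.8% and 4.12% at 1C in NT-LW, 18.7% and 3.88% at MO in NT-D, and 11.6% and 4.07% at MO in NT-LW. At 2C NT-D gave no call (6.48% higher and 1.9% lower among the genes tested), and NT-LW gave 1, OSR2 in NT-LW at 12.8 FPKM against 5.01 in IV-D (log2 difference 1.198). At that stage 34.7% of the genes tested were higher in NT-LW with a median difference of 0.66, and with either scaling that levels the bulk of genes the OSR2 difference was 0.37 to 0.51 and no longer called.

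At 4C DLX5 was 13.7 times as high in NT-D as in IV-D (counting interval 9.26 to 21.1) and 8.46 times as high in NT-LW (5.69 to 13.1), with log2 differences of 2.69 and 2.07. Among the genes tested at that stage 9.74% were higher in NT-D and 10.8% in NT-LW. Fibroblast markers were higher in the same libraries. Their list is not specific to donor cells, since it summed to 78.8 FPKM in IV-D 1C embryos, which had none. The 9 in the table summed to 8.92 FPKM in IV-D 4C, 156 in NT-D and 178 in NT-LW, and 6 of 8 tested were higher in each clone group. Of the defining ones COL1A1 was at 0.630, 2.27 and 3.81 FPKM and COL3A1 at 1.66, 4.10 and 2.61. The 12 oocyte markers summed to 2369, 3189 and 2741 FPKM, and the part that such RNA has in the differences of DLX5 was not tested. SNAI1 at 4C was 2.49 times as high in IV-D as in NT-LW (2.17 to 2.86; log2 difference -1.14), while the NT-D difference of -0.72 did not pass the rule. Lower genes made up 13.2% of those tested in NT-D and 9.43% in NT-LW. OSR2 and RUNX1T1 differed from IV-D by at most 0.29 in size at 4C. DLX5 and SNAI1, both first seen at about this stage, were thus displaced in opposite directions in NT-LW.

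At 8C SNAI1 was the only member called. It was 4.73 times as high in IV-D as in NT-D (4.17 to 5.37; log2 difference -1.99) and 21.6 times as high as in NT-LW (16.5 to 28.8; -3.40). Lower genes made up 17.4% and 17.3% of those tested. The study compared NT-D with IV-D 8-cell embryos using added replicates. It listed SNAI1 there among the suppressed transcription factor genes. Those replicates were not analysed here. The other 3 genes differed from IV-D by -0.86 to 0.78 on the log2(FPKM + 1) scale, with OSR2 higher in both clone groups (0.28 and 0.78) and DLX5 and RUNX1T1 lower in both, none past the rule. By the morula stage SNAI1 was at 9.69, 9.23 and 7.65 FPKM in IV-D, NT-D and NT-LW, with differences of -0.06 and -0.31. Markers of fibroblasts, the donor cell type, and of oocytes were also higher in these clone libraries. The 9 fibroblast markers in the table (of 22 listed) summed to 3.92 FPKM in IV-D 8C, 33.3 in NT-D and 36.8 in NT-LW, and the 12 oocyte markers (of 15) to 43.4, 315 and 558. S100A4 gave a large part of the fibroblast sums of both clone groups. Of the 9 fibroblast markers 5 were below 1 FPKM in NT-D and 3 in NT-LW. COL1A1 and COL3A1, which define fibroblasts, stayed below 0.5 FPKM in all 3 libraries, and the part that such RNA has in the differences of SNAI1 was not tested.

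**Figure D2:**
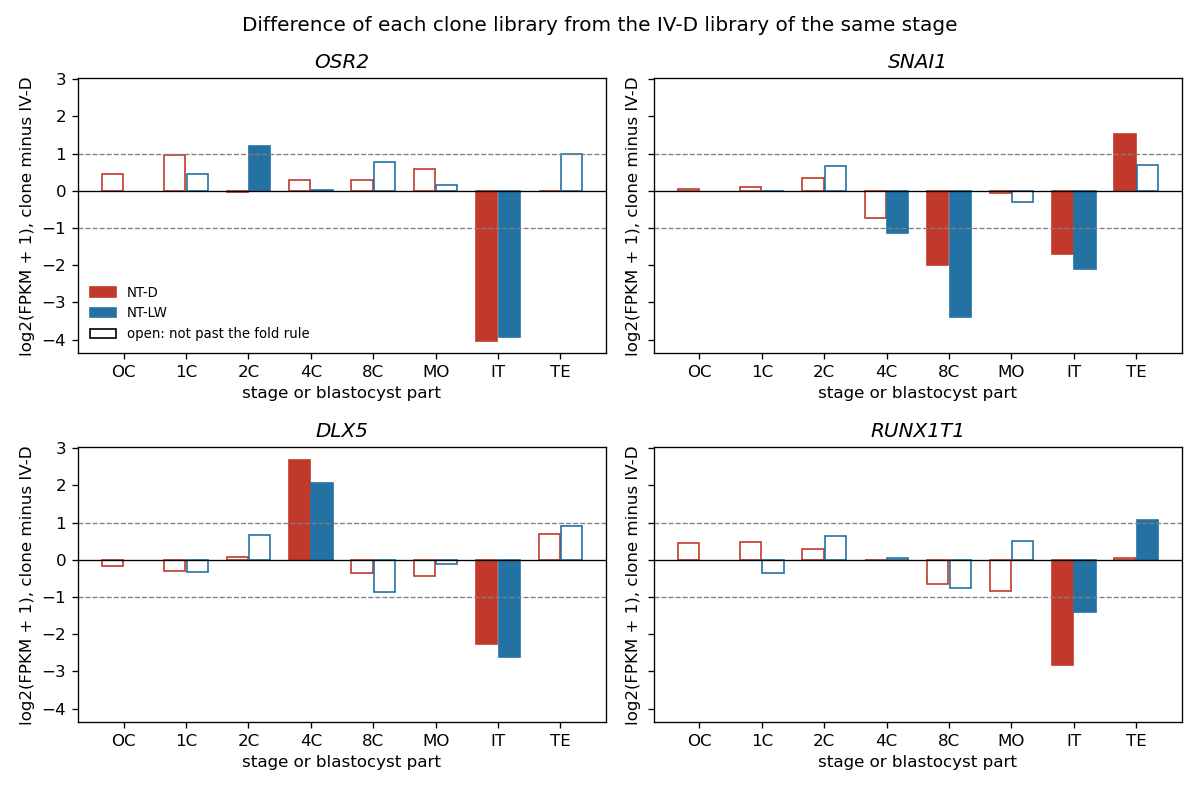
Difference of each clone library from the IV-D library of its stage in log2(FPKM + 1) (vertical axis) by stage or blastocyst part (horizontal axis), for NT-D (red) and NT-LW (blue); filled bars pass the fold rule, open bars do not, and dashed lines mark 1 and -1. In both clone groups filled bars stand at 4C for DLX5, at 8C for SNAI1 and at IT for all 4 genes, and in 1 clone group at 2C for OSR2, at 4C and TE for SNAI1 and at TE for RUNX1T1; at IT and at TE the comparison rests on the IV-D libraries that chose the genes.

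In the blastocyst the choice of the genes has to be kept in view. In the IV-D IT library the levels were 15.3 FPKM for OSR2, 23.1 for SNAI1, 15.4 for DLX5 and 29.1 for RUNX1T1, and in IV-D TE they were 0.0363 (1 fragment), 0.814, 0.5002 and 0.0445 (2 fragments). Over all genes tested 18% were higher in IV-D IT than in IV-D TE. A total of 51 genes lie above 10 FPKM in IV-D IT and below 1 in IV-D TE, with the 4 genes among them. This set was counted here from the table. The study's own list at the same limits is shorter, and why the lists differ was not tested. Just inside the limits are KCTD1 (10.1 FPKM in IT) and SFT2D2 (0.965 in TE), and just outside are PGM5 (9.82 in IT) and FAM111A (1.09 in TE). From morula to TE all 4 genes were lower in IV-D, from 2.22, 9.69, 16.2 and 43.6 FPKM, a step in which 24.6% of the genes tested were lower. In the clones 3 genes were lower in this step, OSR2, DLX5 and RUNX1T1 in NT-D and SNAI1, DLX5 and RUNX1T1 in NT-LW, where 38.5% and 40.3% of the genes tested were. With the scalings that level the bulk of genes the SNAI1 value in NT-LW was -0.86 to -0.87 and not called.

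The IT libraries of the clones had far lower levels of all 4 genes. OSR2 had no fragment in NT-D IT, which allows up to 0.0769 FPKM, and 3 fragments in NT-LW IT. Against the 546 fragments in IV-D IT this is 199-fold lower in NT-D if 3 fragments are taken for the count of 0. The counting interval of the NT-D ratio starts at 161. For NT-LW the ratio was 202, with a counting interval of 68.7 to 981. SNAI1 was at 6.39 FPKM in NT-D and 4.66 in NT-LW, DLX5 at 2.43 and 1.68, and RUNX1T1 at 3.28 and 10.5. On the log2(FPKM + 1) scale NT-D differed from IV-D by -4.03 for OSR2, -1.70 for SNAI1, -2.26 for DLX5 and -2.82 for RUNX1T1, and NT-LW by -3.92, -2.09, -2.62 and -1.40. All 8 values passed the rule, with 15.4% (NT-D) and 13.7% (NT-LW) of the genes tested being lower.

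Because the genes were picked for a high value in that IV-D library, these counts carry no weight of their own. Of the other 47 genes within the same limits, 43 were lower in NT-D IT and 42 in NT-LW IT, with median differences of -2.43 and -2.27, beside medians of -2.54 and -2.35 for the 4 genes. OSR2 ranked 5 and 6 from the lowest among the 51, while SNAI1 ranked 40 in NT-D and RUNX1T1 ranked 40 in NT-LW. The median over all genes tested was -0.15 for NT-D and -0.10 for NT-LW.

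Within the clones, where neither library chose the genes, RUNX1T1 had a difference between the blastocyst parts past the rule in both groups, and no other member had one. It was at 3.28 FPKM in IT against 0.0853 in TE in NT-D (209 and 4 fragments; log2 difference 1.98) and at 10.5 against 1.21 in NT-LW (676 and 64 fragments; 2.38). In NT-D 4.32% of the genes tested were higher in IT, and in NT-LW 5.07%. Of the other 47 genes within the limits of the choice, 31 were higher in IT in NT-D and 19 in NT-LW. RUNX1T1 ranked 36 and 45 from the lowest among the 51, so its difference is not particular to it. SNAI1 was at 6.39 in IT and 4.23 in TE in NT-D, and at 4.66 and 1.92 in NT-LW, differences of 0.50 and 0.95 that did not pass. DLX5 was at 2.43 and 1.44 in NT-D, and at 1.68 and 1.82 in NT-LW, where the counting intervals overlap. OSR2 was at or below 3 fragments in IT of both clone groups, and in NT-LW it had more fragments in TE (34, 1.05 FPKM) than in IT. These calls depend on the settings. OSR2 in NT-LW was lower in IT than in TE past the rule with each of the 3 scalings (-1.02 to -1.17), with a pseudocount of 0.1 and with the binomial rule. SNAI1 in NT-LW was called as higher in IT with libraries rescaled to one sum (1.13), with that pseudocount and with the binomial rule. RUNX1T1 in NT-D was not called with a minimum of 5 FPKM.

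**Figure D3:**
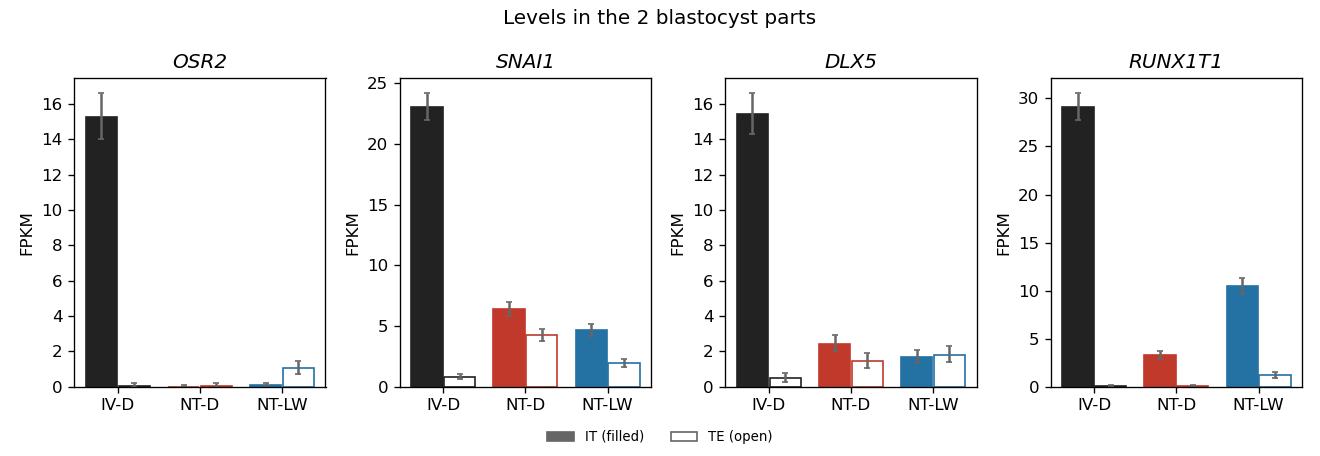
FPKM (vertical axis, linear, from 0) of each gene in IT (filled bars) and TE (open bars) of IV-D, NT-D and NT-LW (horizontal axis), 1 library per bar with 95% counting intervals. IV-D IT is the highest bar in each panel (15.3, 23.1, 15.4 and 29.1 FPKM), and in the clones RUNX1T1 has a difference between IT and TE that passes the fold rule (1.98 and 2.38 in log2), while OSR2 and SNAI1 of NT-LW pass it under other settings.

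The levels of known ICM genes differed between the IT libraries too. NANOG, a pluripotency factor that marks the ICM, was at 9.80 FPKM in IV-D IT, 5.00 in NT-D IT and 3.76 in NT-LW IT and had no fragment in any TE library. The 7 ICM markers in the table (of 19 listed) summed to 116 FPKM in IV-D IT, 41.2 in NT-D and 50.8 in NT-LW, and to 8.92, 22.8 and 17.7 in TE. OTX2 gave 56.0, 9.56 and 25.3 FPKM of these IT sums. POU5F1 and SOX2, which define the ICM, and CDX2 and SOX17, which define TE and hypoblast, are not among the 8603 genes, so the labels of the parts can be checked only in part. The 10 hypoblast markers in the table (of 15) summed to 192 FPKM in IV-D IT, 296 in NT-D and 320 in NT-LW. In TE they summed to 218, 319 and 309. DAB2 gave 137, 247 and 263 FPKM of the IT sums. In IT GATA6 was at 37.7, 33.97 and 37.4 FPKM, while PDGFRA was at 11.6, 1.66 and 2.22. The 9 TE markers (of 17) summed to 1347, 1031 and 1490 FPKM in IT and to 1179, 1715 and 2682 in TE. The share that ICM cells had in each IT library was not tested.

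Set against NANOG in the same library, the level of OSR2 in IT relative to IV-D was 0 for NT-D and 0.0129 for NT-LW. For SNAI1 this ratio was 0.543 for NT-D and 0.527 for NT-LW, and for DLX5 0.309 and 0.284. For RUNX1T1 it was 0.221 for NT-D and 0.936 for NT-LW. The IV-D IT level in these ratios is the one for which the 4 genes, but not NANOG, were chosen, so the ratios are a description and no difference from NANOG is read from them. Among other ICM markers the IT level relative to IV-D ranged from 0.171 for OTX2 to 1.17 for GDF3 in NT-D, and from 0.172 for KLF17 to 0.815 for GDF3 in NT-LW, leaving out DNMT3B, which was below 1 FPKM. OTX2 and KLF17 also lie above 10 FPKM in IV-D IT (56.0 and 14.2) and below 1 in IV-D TE (0.162 and 0.821). They thus meet the limits by which the members were chosen, and their low ratios carry the same reservation.

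**Figure D4:**
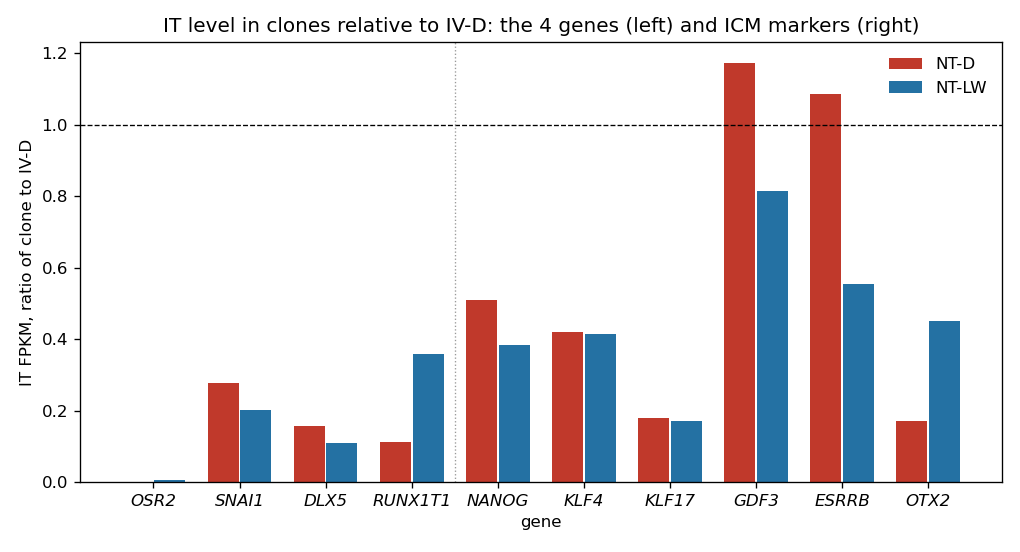
Ratio of the FPKM in clone IT to that in IV-D IT (vertical axis, 1 means equal, dashed line) for the 4 genes (left of the dotted line) and 6 ICM markers (right), in NT-D (red) and NT-LW (blue), 1 library each. The ratios of OSR2 are 0 and 0.00496, those of NANOG 0.510 and 0.384, and those of GDF3 1.17 and 0.815. The 4 genes were chosen for their level in IV-D IT, and among the markers OTX2 and KLF17 meet the same limits.

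The step from morula to IT went different ways in the groups, of which the IV-D side again rests on the library that chose the genes. OSR2 was at 2.22 FPKM in IV-D morulae and 15.3 in IT (log2 difference 2.34), but went from 3.82 to 0 in NT-D (-2.27) and from 2.56 to 0.0757 in NT-LW (-1.72). SNAI1 was higher in IT than in morulae in IV-D (1.17) and changed by -0.47 and -0.61 in NT-D and NT-LW. DLX5 and RUNX1T1 differed little in IV-D (-0.06 and -0.57), and were lower past the rule in NT-D (-1.90 and -2.56) and NT-LW (-2.56 and -2.48). In this step 7.7% of the genes tested were higher in IV-D, and 35.1% and 28.1% were lower in NT-D and NT-LW. Of the other 47 genes within the limits of the choice, 20 were higher in IV-D, and 24 and 25 were lower in NT-D and NT-LW. The NT-D morula library stands apart in its oocyte markers, which summed to 360 FPKM against 12.8 in IV-D and 47.6 in NT-LW morulae. Without it, 16 of 56 values between clones and IV-D were called in place of 16 of 60, and 30 of 72 in place of 38 of 84 for successive stages. In TE the clones were higher past the rule for SNAI1 in NT-D (4.23 against 0.814 FPKM; 1.53) and for RUNX1T1 in NT-LW (1.21 against 0.0445 FPKM; 1.08), where 3.13% and 6.26% of the genes tested were higher. IV-D TE is the other library that chose the genes, for a level below 1 FPKM, so nothing is read from these shares, and with a minimum of 5 FPKM neither value was called.

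Between the clone groups, which differ in breed and donor animal, 5 of 28 values passed the rule, and RUNX1T1 gave 3 of them. It was lower in NT-D than in NT-LW in morulae (24.2 against 63.0 FPKM; -1.35), IT (3.28 against 10.5; -1.42) and TE (0.0853 against 1.21; -1.02). Lower genes made up 7.02%, 2.54% and 4.6% of those tested. SNAI1 was higher in NT-D at 8C (3.97 against 0.870 FPKM; 1.41), as were 2.15% of the genes tested. OSR2 was lower in NT-D at 2C (4.83 against 12.8 FPKM; -1.24), as were 15.5%, and with the scalings that level the bulk of genes this value was -0.77 to -0.86 and not called. With a minimum of 5 FPKM the values of SNAI1 at 8C and of RUNX1T1 in TE were not called. DLX5 did not pass the rule between the clone groups at any stage.

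Over the 23 libraries the 4 genes formed 2 pairs, as a description. Pearson's r of log2(FPKM + 1) was 0.77 between OSR2 and RUNX1T1, which were both present in oocytes, and 0.79 between SNAI1 and DLX5, which both appeared after the 2-cell stage. The other 4 correlations were -0.26 to 0.22. Without the IV-D IT and TE libraries the first 2 were 0.76 and 0.75, and the other 4 were -0.53 to 0.13, with OSR2 and SNAI1 going from -0.26 to -0.53. The libraries share the course of development, and r of this size is not rare: with those 2 libraries left out, SGCE reached 0.86 with OSR2 and ranked 748 among the genes.

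The genes most like each member, by the same r among genes with a symbol and at least 10 FPKM in some library, reached r of 0.86 to 0.92. For OSR2 they were NET1 (0.89), SGCE (0.89), TENT5C (0.87), PHACTR3 (0.87) and TRIM37 (0.86). SGCE, the epsilon-sarcoglycan gene, also had its highest level in IV-D IT (15.7 FPKM), with 0.707 in NT-D and 0.678 in NT-LW IT. For SNAI1 they were KLF10 (0.92), RBMX (0.91), ILF2 (0.90), SERTAD1 (0.90) and HNRNPK (0.90). KLF10, a zinc finger gene known as an early target of TGF-beta, was at 26.0 FPKM in IV-D IT, 8.44 in NT-D IT and 9.37 in NT-LW IT.

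For DLX5 the most alike were BAD (0.88), BCDIN3D (0.87), KRT222 (0.87), WWTR1 (0.86) and DUSP1 (0.86). BAD, which promotes cell death, was at 1479 FPKM in IV-D IT, 102 in NT-D and 159 in NT-LW, and at 1.60 in IV-D TE. WWTR1, the Hippo pathway coactivator TAZ, was at 44.6, 7.54 and 9.67 FPKM in IT. For RUNX1T1 they were OTX2 (0.92), KPNA3 (0.91), BTBD10 (0.90), UBE2E3 (0.90) and STK39 (0.90). OTX2, a homeobox gene of the epiblast and the anterior head, was at 56.0 FPKM in IV-D IT, 9.56 in NT-D and 25.3 in NT-LW, the same order of groups as RUNX1T1. These lists depended on the measure of likeness and, in part, on the IV-D blastocyst libraries. SGCE and OTX2 also meet the limits by which the members were chosen.

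A general list of epithelial genes, a class that SNAI1 is known to repress, was read at 8C. At that stage SNAI1 differed from IV-D in both clone groups, outside the choice of the genes. Of 24 listed, 20 are in the table and 16 were tested at 8C. In NT-D 10 of them were lower than in IV-D and in NT-LW 9, and none was higher, while 17.4% and 17.3% of all genes tested were lower. Their median difference was -1.36 and -1.11, beside -0.12 and -0.02 over all genes tested. The tight junction gene CLDN6 was at 57.9 FPKM in IV-D, 1.18 in NT-D and 1.23 in NT-LW and CLDN1 at 163, 35.9 and 18.4. CDH1, which encodes E-cadherin and was added for its known link to SNAI1 after its values were seen, was at 33.9, 12.1 and 18.6 FPKM. SNAI1 and most tested epithelial genes were therefore lower together in 8-cell clones. In morulae, where SNAI1 was not called, none of 20 tested was called in NT-D. In NT-LW morulae 4 of 20 were lower and 1 higher, beside 4.07% and 11.6% of all genes tested. Their median difference there was -0.46, beside 0.21 over all genes tested. SNAI1 and the epithelial genes were not lower together in IT, where the SNAI1 difference rests on a library that chose the genes. There 1 of 20 tested epithelial genes was higher and 1 lower in NT-D, and 2 were higher and 3 lower in NT-LW. Among all genes tested in IT 9.47% and 8.7% were higher and 15.4% and 13.7% lower. In IV-D 8 of 16 tested were higher and 1 lower at 8C than at 4C, a step in which SNAI1 went from 10.3 to 18.8 FPKM and 35% of all genes tested were higher and 28.1% lower.

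Of the relatives and cofactors of SNAI1, 11 of 24 are in the table, SNAI2 and SNAI3 not among them. At 8C 5 of 10 tested were lower in NT-D and 4 in NT-LW, with 0 and 1 higher, beside 17.4% and 17.3% lower and 10.8% and 16.3% higher among all genes tested. GSC, a homeobox gene of the organizer, was at 15.6 FPKM in IV-D, 4.67 in NT-D and 1.76 in NT-LW, the histone deacetylase HDAC1 at 29.6, 12.0 and 11.4, and the arginine methyltransferase PRMT5 at 36.02, 14.4 and 14.3. In IT 4 of 11 were lower in NT-D and 2 in NT-LW, beside 15.4% and 13.7% of all genes tested. GSC, at 39.4, 4.29 and 7.32 FPKM, is among the lower ones in both. The study listed GSC with the members by the same limits in IV-D IT and TE, so nothing is read from its difference in IT. Of 18 mesenchymal genes, 11 are in the table, and at 8C 3 of 8 tested were higher in NT-D and 5 in NT-LW, with 1 lower in each, where 10.8% and 16.3% of all genes tested were higher. Most of these mesenchymal genes in the table (ACTA2, COL1A1, COL1A2, COL3A1, FN1, S100A4, SPARC and VIM) are also on the list of fibroblast markers. Their counts are thus not a result apart from the fibroblast marker sums at 8C. S100A4, a calcium-binding gene of fibroblasts, was at 0, 23.05 and 18.7 FPKM in IV-D, NT-D and NT-LW.

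Of the genes around DLX5 in the BMP pathway, 19 of 33 are in the table, and of its family DLX4 alone. At 4C, where DLX5 was higher in clones, 4 of 14 tested were higher and 2 lower in NT-D, and 3 of 12 higher and 2 lower in NT-LW, beside 9.74% and 10.8% higher and 13.2% and 9.43% lower among all genes tested. BMP4, a ligand, was lower, at 30.5 FPKM in IV-D, 8.03 in NT-D and 13.4 in NT-LW, and so was the transcription factor gene TFAP2C (25.6, 5.23 and 7.30). GATA3 was higher (0.437, 3.18 and 3.48). In IT 2 of 17 tested were higher and 3 lower in NT-D, and 3 of 18 higher and 2 lower in NT-LW, while 9.47% and 8.7% of all genes tested were higher. ID2, a target of BMP signals, was at 15.6 FPKM in IV-D IT, 4.51 in NT-D and 3.60 in NT-LW, while GATA3, a TE gene, was in IT at 5.42, 17.1 and 14.4. DLX4 stayed at 0 to 5.02 FPKM in all 23 libraries.

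Of the partners of RUNX1T1, 11 of 26 are in the table, among them its relative CBFA2T2 (0.835 to 10.3 FPKM). In IT 1 of 9 tested was lower in each clone group, no larger a share than the 15.4% and 13.7% among all genes. It was the deacetylase HDAC3, at 12.8 FPKM in IV-D, 2.86 in NT-D and 3.88 in NT-LW, and none of the 9 was higher. Of the genes that work with OSR2 in kidney, palate and joint only 5 of 21 are in the table, OSR1 not among them, and in IT 1 of 2 tested was lower in NT-D and 1 of 3 in NT-LW, too few to set beside those shares. That gene was MSX1, at 3.62 FPKM in IV-D IT, 0.112 in NT-D and 0.171 in NT-LW, which is below the limit for named genes and was chosen after its values were seen.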

How the data were processed

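The members and the gene lists were chosen with earlier results of these data known. Per the labels and the study's methods, cDNA was amplified with a SMART-Seq v4 kit, and the authors aligned paired reads to Sscrofa11.1 with HISAT2 2.0.4, counted them per gene with HTSeq 0.9.1 and deposited FPKM values. How the 8603 genes (7371 with a symbol) were chosen is not given in the sources used here. Donor cells and added replicates were not analysed here. A few items, 1 listed gene among them, are not reported here.

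Fragments were recovered from the FPKM steps (tolerance 0.01 of a fragment), which were whole for all 8603 genes at depths of 14952784 to 22991067. The method was also tested on simulated data. A count test between single libraries would compare libraries, not conditions, so the fold rule was used, with a pseudocount of 1 and a minimum of 1 FPKM. Named genes were the 4 members, the 5 genes most like each, up to 3 genes per list and comparison with the largest difference past the rule and at least 5 FPKM, family relatives and defining markers. The 12 lists were written from general knowledge.

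Alternatives were a pseudocount of 0.1, a minimum of 5 FPKM or none, libraries rescaled to sum to 1000000, scaling by median ratios, a trimmed mean of log ratios (30% of ratios and 5% of levels), and an exact binomial test on fragments with an adjusted p-value under 0.005 beside the fold. Spearman's rho, the pseudocount and leaving out the IV-D IT and TE libraries were tried for the most alike genes. Leaving out the NT-D morula or the IV-D TE library was added after seeing the data. Windows before genes were read from the RefSeq annotation of Sscrofa11.1. Intervals came from scipy 1.17.1, tables from pandas 2.3.3 with numpy 2.4.6, and figures from matplotlib 3.10.9, under python 3.11.15.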

Additional observations from a re-analysis of the deposited data

Results flagged for a closer look

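From morula to IT the level of OSR2 moved in opposite directions in IV-D and in the clones. The difference on the log2(FPKM + 1) scale was 2.34 in IV-D and -2.27 in NT-D, which makes -4.61 between the groups, and -1.72 in NT-LW, which makes -4.06. With 1 library per condition the difference was not tested. Both values use the same IV-D libraries, and IV-D IT is 1 of the 2 libraries on which the gene was chosen.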

How the results depend on the processing

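No paired analysis was possible because each condition has 1 library, and leaving out a replicate was not possible for the same reason. None of the 65 calls reversed under any alternative. Differences that were not called were not examined for a reversal. The calls of SNAI1 at 8C, of DLX5 at 4C, of SNAI1 at 4C in NT-LW and of all 4 genes in IT, clones against IV-D, were kept under each scaling, pseudocount, minimum and call rule. Over all comparisons 46 of 65 calls were kept under every alternative and 57 under the 3 scalings. Clones against IV-D gave 14 to 23 calls beside 16, and successive stages 30 to 44 beside 38. NT-D against NT-LW gave 8 calls with a pseudocount of 0.1, 3 with a minimum of 5 FPKM and 8 with the binomial rule, beside 5. IT against TE gave 2 of 8 calls without the IV-D TE library, beside 6 of 12.

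OSR2 was highest in NT-D 1C when libraries were rescaled to one sum, which put IV-D IT at rank 3. With median-ratio scaling DLX5 was highest in IV-D IT and RUNX1T1 in IV-D 1C, with the former first libraries at rank 2. Of the 5 most alike genes, Spearman's rho shared 1 with the list of OSR2, 1 of SNAI1, 0 of DLX5 and 0 of RUNX1T1, a pseudocount of 0.1 shared 2, 3, 3 and 2, and leaving out IV-D IT and TE shared 1, 2 and 1 for the first 3 genes and 4 for RUNX1T1. The scalings moved the median of all genes by over 0.1 in 28 to 33 of 46 comparisons, by -0.80 to 0.79, so differences near 1 depend on them.

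Depth limits OSR2 in the blastocyst, where 4 of 6 libraries had at most 3 fragments.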
